A study of Mus musculus with 44 samples.

Results

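The genes described here are 10 genes of the contractile apparatus whose transcripts tell muscle fibre types apart, out of 38202 genes counted. They were taken by name and not by a rule on measured values, but with earlier results of these data known. They are the adult skeletal myosin heavy chain genes Myh1 (ENSMUSG00000056328), Myh2 (ENSMUSG00000033196), Myh4 (ENSMUSG00000057003) and Myh7 (ENSMUSG00000053093), the slow light chain genes Myl2 (ENSMUSG00000013936) and Myl3 (ENSMUSG00000059741), the slow troponin genes Tnni1 (ENSMUSG00000026418), Tnnt1 (ENSMUSG00000064179) and Tnnc1 (ENSMUSG00000091898), and the fast troponin gene Tnni2 (ENSMUSG00000031097). All 10 symbols matched 1 Ensembl identifier each. Of these, 6 belong to the slow programme and 4 to the fast programme.

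Each muscle fibre contains thick filaments of myosin, and the heavy chain isoform sets how fast the fibre shortens. Myh7 encodes the slow type I heavy chain, Myh2 the IIa, Myh1 the IIx and Myh4 the IIb heavy chain, in order of rising speed. The light chains encoded by Myl2 and Myl3 bind the neck of the slow heavy chain, which is shared with the heart ventricle. Troponin is the calcium switch of the thin filament, built from an inhibitory subunit (Tnni1 slow, Tnni2 fast), a subunit that binds tropomyosin (Tnnt1 slow) and a subunit that binds calcium (Tnnc1 slow and cardiac). Fast limb muscles of the mouse are made mainly of IIb fibres, whereas the soleus is rich in slow and IIa fibres.

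The study sequenced poly(A)-selected RNA of 2 tissues, liver and skeletal muscle, from 11 wild-type (WT) and 11 knockout (KO) mice, in 44 libraries. All mice were males on a C57BL/6N background, were fed a high-fat diet (HFD) for 15 weeks and were killed at 20 weeks of age, by the study's methods after a night without food. KO mice lacked part of Slc16a13, a monocarboxylate transporter gene, in the whole body after CRISPR/Cas9 removal of its proximal promoter and first exons, and WT mice were littermates. The labels do not say which muscle was taken.

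The total count per library was between 20150712 and 35218243 reads. Slc16a13 had 99 to 302 reads in WT livers and 0 to 8 in KO livers. Muscle libraries labelled KO held 11 to 40 Slc16a13 reads and WT libraries 4 to 22 (log2 fold change 0.64, SE 0.22, adjusted p = 0.49, edgeR). These low counts do not show the loss that the label names, so the former are called labelled KO throughout. Counts per whole gene cannot tell reads of the removed exons from reads of the remaining ones, and the reason was not tested. The tissue labels matched their markers: Ckm, Acta1, Actn3, Des and Mb summed to between 50362 and 76116 CPM (counts scaled to library size) in muscle and to between 3.33 and 26.6 CPM in liver. The muscle library of WT mouse 531 stood apart for slow fibre genes, and those of WT mouse 624 and of mouse 611, labelled KO, stood apart for Myh1 and Myh2. Values that 1 of these libraries moved strongly are given with and without it.

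The heavy chain genes are close relatives, and their sequences are shown because reads can be assigned to one of them only where they differ. Over the coding sequences of GENCODE M21, Myh4 was identical to Myh1 at 90.1%, to Myh2 at 88.2% and to Myh7 at 77.5% of aligned bases, and Myh1 and Myh2 were identical at 90.9%. In the stretch of 60 bases in which the fast genes differed most, 25 positions varied among Myh4, Myh1 and Myh2. The sequences run 5′ to 3′, and capitals mark the bases that differ from Myh4.
Myh4, coding bases 3842 to 3901: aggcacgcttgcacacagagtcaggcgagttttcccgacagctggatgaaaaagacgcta
Myh1, coding bases 3851 to 3910: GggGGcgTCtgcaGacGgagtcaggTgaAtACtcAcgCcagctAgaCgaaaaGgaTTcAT
Myh2, coding bases 3851 to 3910: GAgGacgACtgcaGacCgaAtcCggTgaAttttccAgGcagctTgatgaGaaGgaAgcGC
Myh7, coding bases 3830 to 3889: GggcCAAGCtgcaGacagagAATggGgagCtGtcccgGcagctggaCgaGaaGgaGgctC

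In the stretch that differed least, the same 60 bases stood in Myh4, Myh1 and Myh2, while Myh7 differed at 13 positions. A read of 85 bases reaches beyond this stretch, so the stretch alone does not make a read fit several genes.
Myh4, Myh1 and Myh2, coding bases 1321 to 1380: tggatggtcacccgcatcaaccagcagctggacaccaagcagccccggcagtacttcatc
Myh7, coding bases 1312 to 1371: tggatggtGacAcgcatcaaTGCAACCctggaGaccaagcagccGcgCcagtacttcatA

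Reads were 85 bases long. Of all windows of that length in the longest coding transcript, 6.71% of Myh4, 13.5% of Myh1 and 13.1% of Myh2 occurred without a mismatch in a transcript of another gene, chiefly in one another and in Myh8. For Myh7, 13.6% of windows were shared, all with Myh6, the alpha heavy chain of the heart. None of the windows of Myl2, Myl3 or the troponin genes was shared. The authors' name for the RPKM table contains the word unique, which may mean that reads fitting several places were left out, but how reads of shared windows were counted is not stated in the sources used here. A count of Myh1 or Myh2 in a library with far more Myh4 is uncertain to that extent. Myh2 made up 0.0340% of the 4 adult heavy chains in WT mouse 528, where the share of Myh4 was highest (98.3%).

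The promoters of 5 genes are shown because the results turn on the fast cluster and on Myh7 with its closest companion, Tnnt1. RefSeq sequences of 300 bases (250 before and 50 after the annotated start, build GRCm38.p6) were at hand for 9 of the 10 genes, all but Tnni2. Capitals mark TATAAA, the TATA box. They also mark the MCAT element CATTCC, to which TEAD factors bind, and matches to the MEF2 site, and each motif was searched on both strands. The MEF2 matches contain a TATA-like core, and TATAAA matches inside them were counted as both.
Myh4, chr11:67237562-67237861, plus strand: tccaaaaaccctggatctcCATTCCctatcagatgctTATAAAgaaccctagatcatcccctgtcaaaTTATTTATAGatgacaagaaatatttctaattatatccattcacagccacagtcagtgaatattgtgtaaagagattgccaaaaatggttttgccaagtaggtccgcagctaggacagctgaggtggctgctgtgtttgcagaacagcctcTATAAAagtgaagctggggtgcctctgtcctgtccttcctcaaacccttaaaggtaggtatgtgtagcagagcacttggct
Myh1, chr11:67199852-67200151, plus strand: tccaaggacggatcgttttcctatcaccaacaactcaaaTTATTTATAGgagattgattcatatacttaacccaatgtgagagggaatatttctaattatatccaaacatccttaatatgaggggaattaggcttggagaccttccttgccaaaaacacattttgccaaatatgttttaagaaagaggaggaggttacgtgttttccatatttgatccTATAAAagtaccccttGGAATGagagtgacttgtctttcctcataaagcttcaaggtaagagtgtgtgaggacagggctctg
Myh2, chr11:67170777-67171076, plus strand: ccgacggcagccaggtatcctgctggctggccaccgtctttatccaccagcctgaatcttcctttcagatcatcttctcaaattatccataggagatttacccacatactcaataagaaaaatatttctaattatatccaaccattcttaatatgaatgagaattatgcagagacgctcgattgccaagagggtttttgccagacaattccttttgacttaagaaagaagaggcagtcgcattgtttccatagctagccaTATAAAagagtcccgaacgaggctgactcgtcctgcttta
Myh7, chr14:54994577-54994876, minus strand: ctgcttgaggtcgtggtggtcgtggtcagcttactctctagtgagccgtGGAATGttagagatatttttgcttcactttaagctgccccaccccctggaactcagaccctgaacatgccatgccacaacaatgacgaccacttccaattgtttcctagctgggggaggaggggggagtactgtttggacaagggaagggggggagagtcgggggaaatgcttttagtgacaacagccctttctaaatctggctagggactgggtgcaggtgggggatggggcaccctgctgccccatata
Tnnt1, chr7:4515926-4516225, minus strand: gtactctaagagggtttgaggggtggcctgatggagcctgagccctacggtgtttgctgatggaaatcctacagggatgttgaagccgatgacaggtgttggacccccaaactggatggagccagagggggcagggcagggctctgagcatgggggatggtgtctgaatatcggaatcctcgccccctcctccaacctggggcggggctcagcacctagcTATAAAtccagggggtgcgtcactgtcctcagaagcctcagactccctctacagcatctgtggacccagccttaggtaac

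Myh4 and Myh1 were the only ones of the 9 genes with a MEF2 match, at 182 to 173 and at 211 to 202 bases before the start, whereas 3.19% of all 32851 promoters of this length held one. TATAAA stood 31 bases before the start in Myh4, 32 in Myh1 and 30 in Tnnt1, in Myh2 it lay 10 bases after the start, and it was held by 13.6% of all promoters. CATTCC was found in Myh4, Myh1, Myh7, Myl3 and Tnnc1, against 14.7% of all promoters. The E-box CANNTG, the site of MyoD and its relatives, was found in 7 of the 9 genes and in 72.3% of all promoters. Myh2, Myh1 and Myh4 lie next to each other on chromosome 11 in this order and on 1 strand, between Myh3 on one side and Myh8 and Myh13 on the other.

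Skeletal muscle of both groups was dominated by Myh4 and Tnni2. RPKM, the authors' counts per gene length and library size, was for Myh4 10355 at the lowest (mouse 624), 12613 at the median and 14697 at the highest (mouse 528) in WT libraries. In libraries labelled KO the lowest was 9187 (mouse 611), the median 12573 and the highest 14656. The groups overlapped almost completely, with means of 12665 ± 1299 and 12778 ± 1593 RPKM (SD, n = 11 each).

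Tnni2, the inhibitory troponin subunit of fast fibres, ranged from 9494 to 12904 RPKM in WT libraries with a median of 11100. In libraries labelled KO it ranged from 9311 to 12020 with a median of 11165. The lowest library of each group was the same as for Myh4 (624 and 611). Over a library's reads, Myh4 alone took 5.50% to 8.80% and the 10 genes together 7.12% to 9.78%, so that a change in Myh4 also moves the share left to every other gene.

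**Figure D1:**
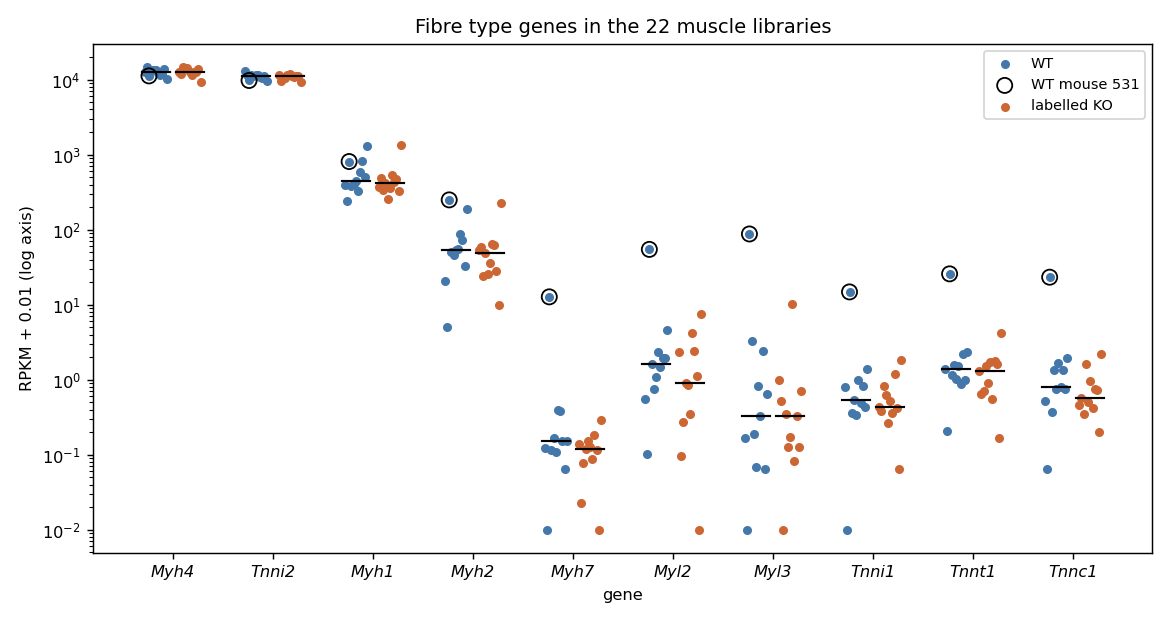
RPKM of the 10 genes in each muscle library on a log axis, with 0.01 added so that a value of 0 can be drawn; blue points are the 11 WT and orange points the 11 libraries labelled KO, bars are medians and the ring marks WT mouse 531. Myh4 (9187 to 14697 RPKM) and Tnni2 (9311 to 12904 RPKM) lie above all other genes in every library, and the ringed library is far above the rest for every slow gene.

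Myh1, the IIx heavy chain, came next. It ranged from 244 RPKM (mouse 528) to 1299 RPKM (mouse 624) in WT libraries around a median of 440, and from 256 (mouse 583) to 1359 RPKM (mouse 611) in libraries labelled KO around a median of 421. The next highest values were 823 RPKM in WT and 528 RPKM in the labelled KO group, so 1 library per group stood well above its group.

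Myh2, the IIa heavy chain, varied more. It was 5.09 RPKM at the lowest (mouse 528), 53.1 at the median and 249 at the highest (mouse 531) in WT libraries, and 9.75 (mouse 602), 48.5 and 225 RPKM (mouse 611) in libraries labelled KO. The groups overlapped over nearly the whole range. Mouse 624 followed with 191 RPKM, and the second highest library labelled KO had 64.7 RPKM.

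The share of each gene in the summed RPKM of Myh1, Myh2, Myh4 and Myh7 gives the adult fibre type make-up of a library at the level of transcripts. Since bulk RNA was sequenced, fewer fibres of a type and less transcript per fibre cannot be told apart. Myh4 made up 95.0% ± 3.23 of the sum in WT and 95.7% ± 3.55 in libraries labelled KO, Myh1 4.38% ± 2.69 and 3.86% ± 3.0, Myh2 0.623% ± 0.628 and 0.471% ± 0.557, and Myh7 0.0105% ± 0.0308 and 0.000863% ± 0.000690 (mean ± SD, n = 11 each). Mouse 531 carried the WT mean of Myh7, which was 0.00121% ± 0.00100 (n = 10) without it. The differences between group means, 0.68 percentage points for Myh4 and -0.52 for Myh1, were smaller than 1 SD of either group. The difference for Myh1 was -1.40 percentage points without mouse 611 and turned to 0.14 without WT mouse 624. For each of Myh1, Myh2 and Myh4, 10 of the 11 libraries labelled KO lay within the range of WT libraries. For Myh7 all 11 did, but there the WT range began at 0 and mouse 531 set its upper end. Without mouse 531 the WT range for Myh7 was 0 to 0.00299%, and the highest share labelled KO was 0.00258%.

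Single libraries differed far more than the groups. Mouse 611, labelled KO, had the lowest share of Myh4 (85.3%) and the highest shares of Myh1 (12.6%) and Myh2 (2.09%). WT mouse 624 was next, with 87.4% Myh4, 11.0% Myh1 and 1.61% Myh2. WT mouse 531 had 91.3% Myh4 and 6.59% Myh1 but a share of Myh2 as high as that of mouse 611 (2.03%), and it was the only library in which Myh7 reached 0.103%. At the other end stood WT mouse 528 (1.63% Myh1, 0.0340% Myh2) and mouse 602 (2.29% and 0.0690%), and in neither was a single Myh7 read counted. From raw reads, or with Myh3 and Myh8 added to the sum, the mean share of Myh4 in WT was again 95.0%.

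**Figure D2:**
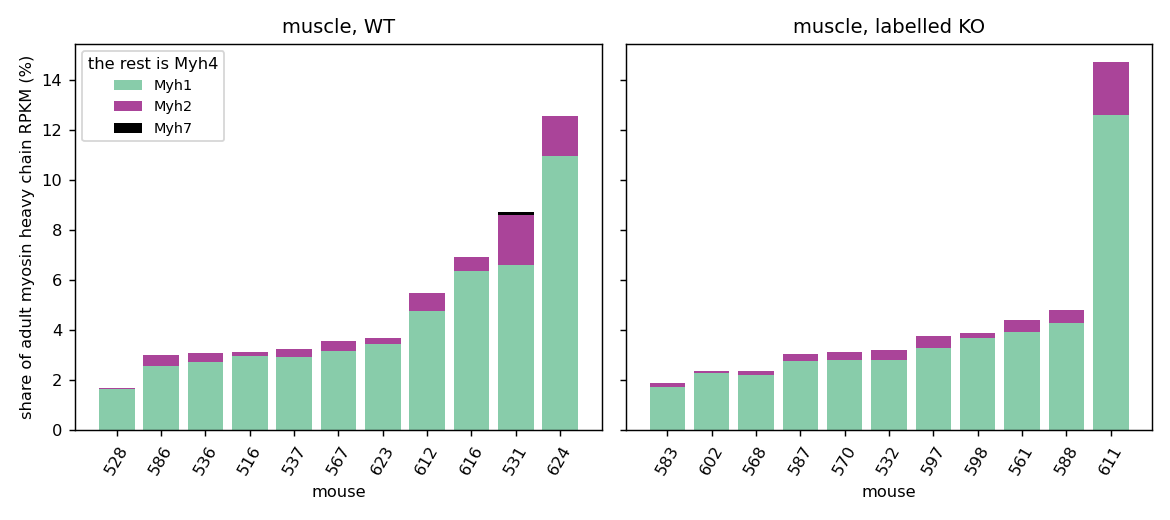
Share of Myh1, Myh2 and Myh7 in the summed RPKM of the 4 adult heavy chains for each mouse, WT on the left and labelled KO on the right, sorted by the share of Myh4, which fills the rest up to the whole. Mice 624 and 611 stand out by their Myh1 (11.0% and 12.6%), and a visible share of Myh7 (0.103%) appears in mouse 531 alone.

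The 6 slow genes were near the limit of detection in nearly every muscle library. Median Myh7 was 0.142 RPKM in WT and 0.11 RPKM in libraries labelled KO, and the median numbers of reads were 16 and 17. At this level RPKM did not always follow the reads: WT mouse 612 had 0.368 RPKM with 12 reads, and WT mouse 624 had 0.142 RPKM with 26. The medians of Tnni1 (0.530 and 0.418 RPKM), Tnnc1 (0.781 and 0.563 RPKM), Tnnt1 (1.36 and 1.28 RPKM), Myl2 (1.63 and 0.895 RPKM) and Myl3 (0.319 and 0.317 RPKM) were similarly low. The lowest libraries were mouse 528 in WT for all 6 genes and mouse 602 in the labelled KO group for 5 of them, the exception being Myl3, with its lowest value in mouse 568.

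In WT mouse 531, all 6 slow genes were highest of all 22 muscle libraries. Myh7 was at 12.7 RPKM, 113 times the median of the other 21 libraries (0.112 RPKM), and the next highest library reached 0.380 RPKM. Myl3 was at 87.6 RPKM against a median of 0.317, Myl2 at 54.6 against 1.11, Tnnc1 at 23.2 against 0.732, Tnni1 at 14.8 against 0.481 and Tnnt1 at 25.7 RPKM against 1.28. The heavy chain was thus raised most apart from Myl3, and the troponin genes 20.1 to 31.7 times.

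Other slow fibre genes were also highest in mouse 531: the calcium pump Atp2a2 (32.4 RPKM against a median of 11.0), the slow tropomyosin gene Tpm3 (34.7 against 9.11) and the second slow heavy chain gene Myh7b (0.813 against 0.164). A wider slow fibre list was chosen with earlier results of these data known. Of its 17 tested genes, 12 were highest in mouse 531, whereas this library was highest for 3.28% of all 13266 tested genes. Among the 12 are 5 of the slow genes described above, and of the other 12 genes of the list 7 were highest there. Tnni2 and Myh4 were little lower there, at 0.87 and 0.89 times the median of the others. Of the 10 tested genes of development and regeneration, such as the embryonic heavy chain Myh3 and Pax7 of satellite cells, none was highest in this library. Beside the share of 3.28% over all tested genes, a count of 0 among 10 does not set these genes apart.

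Mice 624 and 611 had the third and the second highest values for Myl2, Tnni1, Tnnt1 and Tnnc1, but at a much lower level than mouse 531. Their Myh7 was 0.142 and 0.278 RPKM, Tnni1 1.37 and 1.82 RPKM, and Myl2 4.52 and 7.49 RPKM. A library could thus be rich in Myh1 and Myh2 with hardly any Myh7. Genes shared by slow and IIa fibres followed Myh2: the sarcomere protein gene Csrp3 was at 385, 290 and 379 RPKM in mice 531, 624 and 611, with a median of 42.4 RPKM over the libraries other than mouse 531, and Ankrd2 was at 320, 221 and 260 RPKM with a median of 55.0.

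Myl3 departed from the other slow genes in mouse 588, labelled KO, where it reached 10.1 RPKM, 31.9 times the median of the other libraries, with Myh7 at only 0.078 RPKM and Tnnt1 at 0.537 RPKM. Its partner Myl2 was the fourth highest of all in that library, at 4.13 RPKM.

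Across the series, the order of levels per gene length was Myh4, Tnni2, Myh1, Myh2 and then the slow genes. Myh4 exceeded Tnni2 in 10 of 11 libraries of each group, and the order from Tnni2 to Myh1 to Myh2 to any slow gene next in rank held in all libraries of each group. Among the slow genes, neighbours in the order were often reversed: the median of Myl2 stood above that of Tnnt1 in WT and below it in the labelled KO group, with 7 of 11 libraries in the order of the medians in each group. Tnnc1 lay above Tnni1 in 10 of 11 WT libraries and in 9 of 11 labelled KO. The RPKM of Myl2 rests on an implied gene length of 463 bases, against 889 bases for its longest GENCODE transcript, and its rank per length depends on that.

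The spread between libraries set the slow genes and Myh2 apart from most genes. The SD of log2 CPM around the group means was 1.91 for Myh7, at the percentile 99.95 of all tested genes, 1.82 for Myl2, 1.48 for Tnni1, 1.39 for Tnnt1, 1.37 for Tnnc1 and 1.31 for Myh2, with a median of 0.17 over all tested genes. Myh1 had an SD of 0.63. Myh4 (0.22) and Tnni2 (0.15) stood near the middle of all genes. Without mouse 531 the SD of Myh7 was 1.26 and that of Myh2 1.23, and they stood at the percentiles 99.68 and 99.64.

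Muscle libraries labelled KO were compared with WT to ask whether the genotype was accompanied by another fibre type make-up. None of the 9 tested genes passed an adjusted p of 0.05 in the quasi-likelihood test of edgeR, adjusted after Benjamini-Hochberg over all genes, and Myl3 had too few reads to be tested. The test called 1 of 13266 genes, a background of 0.00754%. An unadjusted p under 0.05 was found for 5 of the 9 genes, all slow and all lower in libraries labelled KO, beside 8.64% of all tested genes (4.88% lower). DESeq2 and limma-voom called 0 of those they tested.

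The log2 fold change of Myh7 was -3.60 (SE 1.03, p = 0.0018, adjusted p = 0.49, edgeR). Tnnc1 differed by -1.89 (SE 0.70, adjusted p = 0.51), Myl2 by -1.87 (SE 0.82, adjusted p = 0.53), Tnni1 by -1.63 (SE 0.71, adjusted p = 0.53) and Tnnt1 by -1.36 (SE 0.64, adjusted p = 0.56). All of these rested on WT mouse 531. Without it the log2 fold change was -0.30 (SE 0.47) for Myh7, -0.27 (SE 0.39) for Tnnc1, -0.016 (SE 0.60) for Myl2, 0.0017 (SE 0.44) for Tnni1 and 0.044 (SE 0.39) for Tnnt1, and 0 of the 9 genes had an unadjusted p under 0.05, beside 8.51% of all tested genes.

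The fast genes did not pass the test either. Myh2 differed by -0.47 (SE 0.49, adjusted p = 0.80, edgeR) and by -0.12 (SE 0.47) without mouse 531. Myh1 differed by -0.24 (SE 0.26, adjusted p = 0.81, edgeR), Tnni2 by -0.041 (SE 0.064, adjusted p = 0.87) and Myh4 by -0.0037 (SE 0.090, adjusted p = 0.99). The sign of the value for Myh4 turned under several other settings, such as scaling by library size alone (0.014). With 1 library left out at a time, Myh4 lay between -0.033 and 0.047, Myh1 between -0.50 and -0.049 and Myh2 between -0.92 and -0.12.

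**Figure D3:**
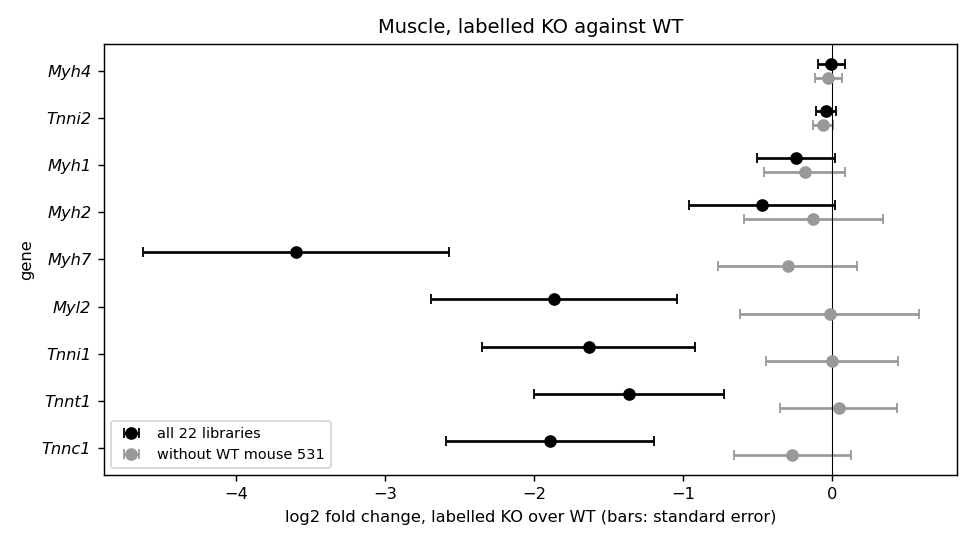
Log2 fold change of the 9 tested genes in muscle, labelled KO over WT, with the standard error derived from edgeR's quasi-likelihood F-test as bars. Black points are from all 22 libraries and grey points from 21 without WT mouse 531. The 5 slow genes lie between -3.60 and -1.36 in black and near 0 in grey, while Myh4 and Tnni2 stay close to 0 in both.

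Wider lists of the same programmes held no called gene either. Of 18 slow fibre genes, 17 were tested and 0 passed, with a median log2 fold change of -0.45 (16 lower, 1 higher) beside 0.01 over all tested genes. Without mouse 531 the median was -0.02, with 11 lower and 6 higher. Beside the 5 genes above, Sln, which encodes a small inhibitor of the calcium pump, differed most (-1.56, SE 0.81, adjusted p = 0.61, edgeR). Its highest WT value was 102 RPKM in mouse 616, with a group median of 3.49 RPKM, and mouse 532 held the highest value in the labelled KO group, 22.7 RPKM.

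All 15 fast fibre genes were tested and 0 passed, with a median of -0.02. After Myh2 and Myh1, the largest difference was that of Actn3, the fast fibre actinin (-0.06, SE 0.09, adjusted p = 0.88, edgeR). Of 11 genes of development and regeneration, 10 were tested and 0 passed (median -0.10), and the embryonic heavy chain Myh3 differed most (-0.71, SE 0.43, adjusted p = 0.65).

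Of 30 regulators of fibre type, all were tested and 0 passed, with a median of -0.05. The largest differences were those of Mafa, a transcription factor (-0.29, SE 0.20, adjusted p = 0.69, edgeR), Vgll2, a cofactor of TEAD proteins (-0.24, SE 0.14, adjusted p = 0.64), Esrra, a nuclear receptor that drives mitochondrial genes (-0.21, SE 0.08, adjusted p = 0.51), and Esrrb (-0.19, SE 0.31, adjusted p = 0.88). In mouse 531, Rcan1, a target of calcineurin signalling, was at 62.1 RPKM against a median of 26.5, and Vgll2 at 23.9 RPKM against 13.3. That library was highest for 5 of the 30 regulators, which also include Prox1, Nfatc2 and Nfatc4, beside 3.28% of all tested genes. Mouse 588, labelled KO, was highest for 6 of the 30, beside 5.49% of all tested genes.

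The slow genes varied together from library to library. After the group means had been subtracted, log2 CPM of Myh7 correlated with that of Tnnt1 at r = 0.94 and rho = 0.80, of Tnni1 at r = 0.91 and rho = 0.66, of Tnnc1 at r = 0.91 and rho = 0.70, and of Myl2 at r = 0.85 and rho = 0.65 (22 libraries). For r, each permutation p was 1e-05, the smallest that 100000 resamples can give, with adjusted p = 6.7e-05 over 27 relations. For rho, the adjusted permutation p was 0.00027 for Tnnt1, 0.0053 for Tnnc1 and 0.0067 for Tnni1 and Myl2. Without mice 531 and 528, the 2 libraries farthest from the median of Myh7, r was 0.84 for Tnnt1, 0.72 for Tnni1, 0.66 for Tnnc1 and 0.69 for Myl2.

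Among the 11 WT libraries alone, r with Myh7 was 0.96 for Tnnt1, 0.95 for Tnnc1, 0.95 for Tnni1 and 0.91 for Myl2 (adjusted permutation p from 0.0025 to 0.0065), but these values rested on mice 531 and 528. Without them r was 0.53, 0.53, 0.47 and 0.19. Among the 11 libraries labelled KO alone, which do not hold mouse 531, r was 0.90 for Tnnt1 (adjusted permutation p = 0.0012), 0.79 for Myl2 (0.0040), 0.78 for Tnni1 (0.011) and 0.71 for Tnnc1 (0.027). The corresponding rho was 0.87, 0.66, 0.63 and 0.69, of which that for Tnnt1 passed adjustment (adjusted permutation p = 0.0067) and the others did not (0.076, 0.096 and 0.069). Without mice 561 and 602, the 2 farthest in this group, r was 0.91 for Tnnt1, 0.58 for Myl2, 0.71 for Tnni1 and 0.80 for Tnnc1. Myl3 was the exception. Its r with Myh7 over 22 libraries was 0.67 (rho = 0.43, adjusted permutation p = 0.0049 for r and 0.10 for rho), but 0.21 without mice 531 and 528 and 0.12 among libraries labelled KO (adjusted permutation p = 0.72).

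Myh2 stood between the programmes. Its r with Myh7 was 0.71 and its rho 0.41 (adjusted permutation p = 0.0024 and 0.10), and r was 0.49 without mice 531 and 528. Among WT libraries alone r fell from 0.74 (adjusted permutation p = 0.038) to 0.093 without these mice. Among libraries labelled KO it was 0.66 (adjusted permutation p = 0.053) and 0.79 without mice 561 and 602. For Myh1 (r = 0.40, rho = 0.20), Myh4 (r = -0.40, rho = -0.29) and Tnni2 (r = -0.29, rho = -0.15), no relation with Myh7 passed adjustment (adjusted permutation p from 0.098 to 0.23 for r and from 0.28 to 0.56 for rho).

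Myh1 and Myh2 moved against the other fast genes. Over 45 pairs of the 10 genes, an analysis added after the values above had been seen, Myh1 rose with Myh2 (r = 0.81, rho = 0.82, adjusted permutation p = 9.6e-05 and 0.00034) and fell as Myh4 rose (r = -0.82, rho = -0.73, adjusted permutation p = 9e-05 and 0.0011). Myh4 correlated with Tnni2 at r = 0.80 (rho = 0.72, adjusted permutation p = 9e-05 and 0.0011). Without mice 611 and 624, the 2 libraries farthest from the median of the first gene, these values of r were 0.74, -0.64 and 0.64.

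Myh2 also rose with the slow genes. Its r was 0.83 with Myl2, 0.81 with Tnni1, 0.79 with Tnnt1 and 0.79 with Tnnc1 (adjusted permutation p from 5.6e-05 to 0.00012), and 0.78, 0.71, 0.68 and 0.69 without mice 528 and 611. The rho was 0.74, 0.53, 0.44 and 0.60, of which that with Tnnt1 did not pass (adjusted permutation p = 0.054). Myh1 rose with Myl2 (r = 0.65, rho = 0.62, adjusted permutation p = 0.0029 and 0.0062) and Tnni1 (r = 0.61, rho = 0.46, adjusted permutation p = 0.0066 and 0.044), and Myh4 fell as Tnni1 rose (r = -0.58, rho = -0.55, adjusted permutation p = 0.010 and 0.018). Without mice 611 and 624 these values of r were 0.60, 0.59 and -0.52. Shared reads, and the share of the library taken by Myh4, link these counts, and their part in the correlations was not tested.

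**Figure D4:**
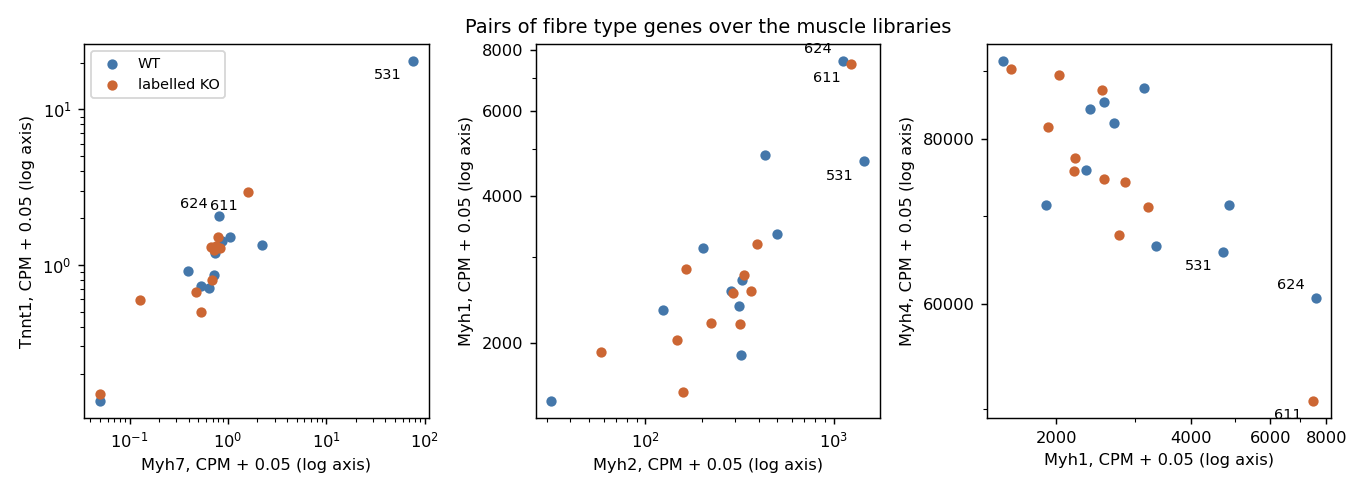
CPM of pairs of genes in the 22 muscle libraries on log axes, with 0.05 added; blue points are WT, orange points labelled KO, and mice 531, 624 and 611 are numbered. Tnnt1 follows Myh7 from the lowest to the highest library (left), Myh1 follows Myh2 (middle), and Myh4 is low where Myh1 is high (right), with mouse 611 lowest for Myh4 and mouse 624 highest for Myh1.

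Among all tested genes, those whose log2 CPM deviations were most like Myh7 were Tnnt1, Tnni1, Tnnc1 and Myl2, then Atp2a2 (r = 0.78), Myh7b (0.78), Nfatc4 (0.73), Wdr45b (0.73), Gm15564 (0.73) and Fxyd6 (0.73). The first 4 places thus went to 4 of the other slow genes described here. Without mouse 531, r was 0.85 for Myh7b, 0.74 for Fxyd6, 0.69 for Wdr45b and 0.59 for Nfatc4, but 0.30 for Gm15564 and 0.24 for Atp2a2. Mhrt, which lies on the opposite strand of Myh7, and Nisch, opposite Tnnc1, share sequence positions with these genes, and reads of overlapping genes cannot be told apart unless strand was used in counting.

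Most like Myh4 were the fast myosin binding protein gene Mybpc2 (r = 0.95), the fast calcium pump gene Atp2a1 (0.95), the glycogen phosphorylase gene Pygm (0.95) and Actn3 (0.95), followed by Eif4g1 (0.93), Dcaf8 (0.93), Eif3c (0.92), Wdr70 (0.91), Jph1 (0.91) and Stab2 (0.91). Leaving out mouse 531 changed none of the first 4 by more than 0.01. Mybpc2, Atp2a1 and Actn3 belong to the fast fibre list.

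Most like Myh2, added after the values had been seen, were Myoz2 of the slow sarcomere (r = 0.98), the ketone body enzyme gene Bdh1 (0.96), Myom3 (0.95), Actn2 (0.95), 9430073C21Rik (0.95), Smtnl1 (0.94), the heart-type lactate dehydrogenase gene Ldhb (0.94), the nuclear receptor gene Esrrg (0.94), Gm15543 (0.94) and the myoglobin gene Mb (0.94). Myoz2 ranged from 0.375 to 47.3 CPM and Mb from 295 to 2370 CPM over the muscle libraries. 9430073C21Rik is antisense to Myh2, so its likeness can come from the same reads and cannot be told apart from it.

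Several measures of the tissue moved with these genes, and their part in the results was not tested. The summed CPM of 5 nerve and Schwann cell markers ranged from 38.5 to 73.7 in WT and from 43.9 to 94.1 in libraries labelled KO, with the highest values in mice 531 and 611, and it correlated with Myh2 at r = 0.78 (rho = 0.72, adjusted permutation p = 0.0010 and 0.0064 over 26 relations) and with Myh7 at r = 0.64 (rho = 0.30, adjusted permutation p = 0.050 and 0.38). Without the 2 farthest libraries r was 0.74 for Myh2 (mice 528 and 611) and 0.38 for Myh7 (mice 528 and 531). Markers of smooth muscle (4 genes, 57.3 to 122 CPM in WT and 60.2 to 162 CPM in labelled KO, r = 0.62 and rho = 0.68 with Myh2) and endothelium (5 genes, 162 to 261 and 153 to 305 CPM, r = 0.57 and rho = 0.55) also passed for Myh2 (adjusted permutation p = 0.017 and 0.035 for r). The 5 muscle fibre markers, with a range from 57930 to 76116 CPM in WT and from 50362 to 69796 CPM in labelled KO, fell in sum as Myh2 rose (r = -0.62, rho = -0.70, adjusted permutation p = 0.017 and 0.0064), although Mb, which is 1 of them, rose with Myh2. Without mice 528 and 611, r with Myh2 was 0.69 for smooth muscle, 0.59 for endothelium and -0.47 for the muscle fibre markers. Mouse 611, with the most Myh1 and Myh2 in its group, was highest of all 22 libraries for markers of nerve, endothelium, connective tissue, immune cells and blood, and the second for adipocytes (1556 CPM) after mouse 561, labelled KO (1718 CPM). It was also extreme for many other genes, being highest for 11.4% and lowest for 1744 of all 13266 tested genes. Of the 15 fast fibre genes it was lowest for 12, and of the 30 regulators for 11.

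The heart ventricle shares Myh7, Myl2, Myl3 and Tnnc1 with slow fibres. Of 5 heart markers, Myl7 was at 0 in every muscle library, Nppb was at 0 in every WT muscle library, and their sum in mouse 531 was 9.44 CPM, the seventh of the 22 libraries. The sum rose with Myh7 by rank (rho = 0.59, adjusted permutation p = 0.031), while r was 0.48 (adjusted permutation p = 0.086), and 0.68 without mice 528 and 531. In mouse 531, 6.95 CPM of the sum were Myl4, which is also on the list of development and regeneration. Another of the 5 markers is Myh6, which shares read-length windows with Myh7. The part of the heart markers in the level of Myh7 was not tested.

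Neither total count (r = -0.04 with Myh7, r = 0.20 with Myh2) nor the slope of a library on gene length (r = -0.01 and 0.27) passed adjustment for either gene (lowest adjusted permutation p of these, 0.36 for r and 0.10 for rho).

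Liver served as the reference tissue. Myl2 had 0 reads in all 22 liver libraries, and Myh2, Myh7, Myl3 and Tnni1 had at most 2 reads in any of them. In total, 277710241 reads of WT liver held 4 reads of Myh2, 3 of Myh7, 3 of Myl3 and 1 of Tnni1, and 281951834 reads of KO liver held 0, 1, 0 and 3. Against a floor of 3 counts per library, mean Myl2 was at least 25.3-fold higher in WT muscle than in WT liver and at least 6.86-fold higher in the labelled KO group. Without mouse 531 the bound for WT was 6.69-fold, close to that of the labelled KO group. Mean Myh2 was at least 2949-fold higher in the muscle libraries labelled KO than in KO liver.

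Myh4 and Tnni2 were found in nearly all livers at a trace. Myh4 had 17 reads at the lowest, 53 at the median and 640 at the highest (mouse 516) in WT liver, and 0 (mouse 568), 28 and 263 reads (mouse 532) in KO liver. Tnni2 had 1, 6 and 77 reads in WT and 0, 4 and 45 reads in KO liver, highest in the same livers. The groups overlapped, and in the test of liver KO against WT Myh4 differed by -0.997 on the log2 scale (SE 0.66, adjusted p = 0.42, edgeR). Without WT liver 516 the difference was -0.0098.

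Over all liver libraries of a genotype, 0.116 reads of Tnni2 were counted per read of Myh4 in WT and 0.141 in KO, beside 0.105 and 0.103 in the corresponding muscle libraries. Tnni2 is much shorter than Myh4 (719 against 5982 bases of implied length). The slope on gene length was -0.54, -0.25 and -0.42 in KO livers 532, 583 and 602, and 0.039 to 0.096 in WT livers. Livers 532 and 602 held 263 and 143 of the 622 Myh4 reads of KO liver. The part of the slope in these ratios was not tested. Where these liver reads came from was not tested. Over 22 livers, log2 CPM of Myh4 correlated with that of Tnni2 at r = 0.75 and rho = 0.81 (adjusted permutation p = 0.00018 and 6.7e-05 over 5 relations), and with the muscle genes Ckm and Acta1 at r = 0.93 and rho = 0.87 each (adjusted permutation p = 2.5e-05). Without mice 516 and 568, r was 0.82 for Tnni2, 0.88 for Ckm and 0.87 for Acta1.

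Tnnt1 and Tnnc1 behaved otherwise in liver. Tnnt1 was counted in every liver, with 12 reads at the lowest, 19 at the median and 35 at the highest in WT and 8, 23 and 43 in KO, and Tnnc1 with 3, 10 and 17 reads in WT and 4, 7 and 23 in KO. The highest Tnnt1 counts of KO liver (43, 42 and 36 reads) were those of mice 602, 583 and 532, whose slopes on gene length were the lowest. Per read of Myh4, liver of WT mice held 0.177 reads of Tnnt1 and 0.0982 of Tnnc1, while WT muscle held 3.6e-05 and 2.7e-05. Without mouse 516, whose liver held 640 of the 1212 Myh4 reads of WT liver, the liver ratios were 0.343 and 0.196, and without mouse 531 the muscle ratios were 1.4e-05 and 9e-06. In KO mice, liver held 0.428 reads of Tnnt1 and 0.151 of Tnnc1 per read of Myh4, and muscle labelled KO 1.5e-05 and 7.6e-06. Tnnt1 did not pass for a relation with Myh4 across livers (r = 0.29, rho = 0.22, adjusted permutation p = 0.19 and 0.32), and Tnnc1 reached r = 0.45 (rho = 0.45, adjusted permutation p = 0.043 and 0.044). In RPKM, Tnnt1 was at a median of 1.17 in WT liver and 1.36 in WT muscle.

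**Figure D5:**
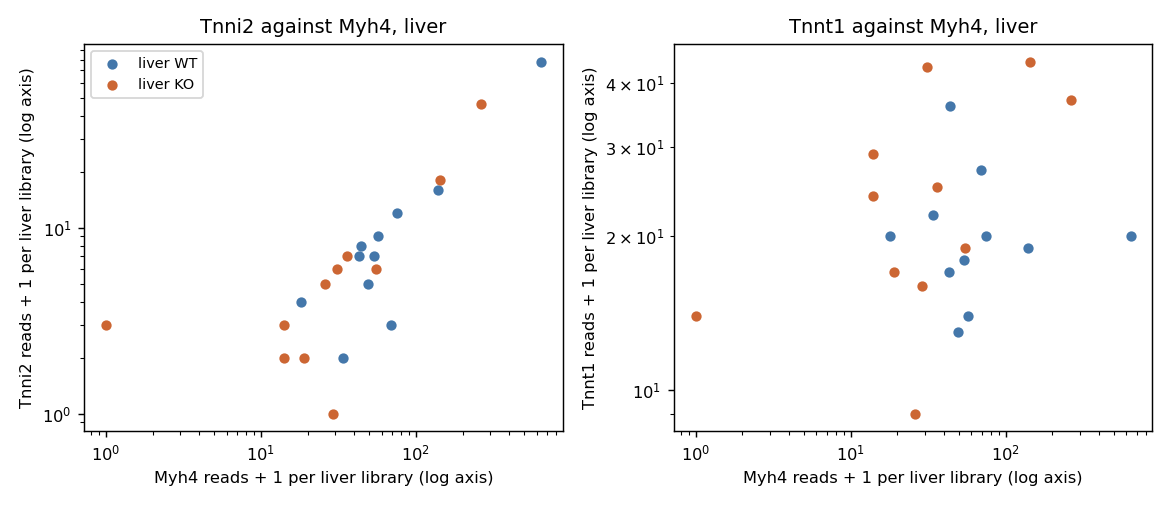
Reads of Tnni2 (left) and Tnnt1 (right) against reads of Myh4 in each of the 22 liver libraries, on log axes with 1 added; blue points are WT and orange points KO. Tnni2 rises with Myh4 over nearly the whole range, whereas Tnnt1 stays between 8 and 43 reads at any Myh4 count.

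In the test of liver KO against WT, only Myh4 and Tnnt1 had enough reads, and neither passed (0.0231% of 13005 tested genes did). Tnnt1 differed by 0.35 (SE 0.23, adjusted p = 0.42, edgeR), and the sign turned without the KO livers whose counts fell with gene length. At an unadjusted p under 0.05 there were 0 of these 2 genes, beside 12.9% of all tested genes, and DESeq2 and limma-voom called 0.

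Muscle was compared with liver within each genotype. In WT mice, 6 of the 10 genes entered a test that called 91.0% of 13907 genes, 45.5% of all tested as higher in muscle. Of these 6, Myh1, Myh2 and Tnni2 entered through their reads in muscle, which fixed their direction, so their calls are no finding. Tnnc1 had too few reads to enter the test of liver alone, and Myh4 and Tnnt1 had enough there. The log2 fold change of Myh4 was 14.01 (SE 0.69, adjusted p = 4.2e-16, edgeR), and 14.99 without WT liver 516. In reads over all WT libraries, Tnni2 had 140 in liver and 2317562 in muscle, Myh1 53 and 1018249, and Myh2 4 and 141254.

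The slow troponin genes differed much less between the tissues, and the differences rested on mouse 531. The log2 fold change was 1.81 for Tnnt1 (SE 0.61, adjusted p = 0.0078, edgeR) and 2.24 for Tnnc1 (SE 0.70, adjusted p = 0.0045). Without the muscle library of mouse 531 it was 0.42 for Tnnt1 (adjusted p = 0.15) and 0.63 for Tnnc1 (adjusted p = 0.072), and neither passed. With the mouse as a replicate block Tnnt1 differed by 0.82 and no longer passed (adjusted p = 0.088, edgeR), and in DESeq2, which replaces counts it marks as outlying, neither Tnnt1 (0.38, adjusted p = 0.18) nor Tnnc1 (0.59, adjusted p = 0.091) passed.

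In KO mice, 5 genes entered a test that called 86.7% of 13981 genes (42.8% as higher in muscle), and Myh1, Myh2 and Tnni2 again entered through muscle. The log2 fold change of Myh4 was 14.97 (SE 0.76, adjusted p = 1.9e-15, edgeR), and 15.58 without KO liver 532. Tnnt1 differed by 0.081 between the muscle libraries labelled KO and KO liver (SE 0.36, adjusted p = 0.84, edgeR), less than its standard error.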

How the data were processed

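Libraries of liver and muscle RNA from 11 WT and 11 KO mice were sequenced as single-end reads of 85 bases from directional poly(A) libraries. Groups and animal numbers came from the labels, and a number that occurs in each tissue was taken as 1 mouse. The gene lists, like the 10 genes, were chosen with earlier results of these data known, and the 45 pairs, the genes most like Myh2 and the fits between tissues or of liver without muscle 531, liver 516 or liver 532 were added after seeing the values. The authors deposited raw counts per gene, not normalized, and a table of RPKM calculated by them and named unique, over 38202 genes, for which a table of identifiers gave 36340 symbols. The aligner, counting program, strand setting, build and annotation are not given in the sources used here, and the sequencing pool was not used here.

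Counts were tested in R 4.3.3 with edgeR 4.0.16 (TMM, filterByExpr, quasi-likelihood F-test, Benjamini-Hochberg threshold 0.05), within the 22 libraries of a tissue or of a genotype. This procedure was tested on simulated data. Standard errors (SE) given for edgeR were derived as the absolute log2 fold change divided by the square root of F. Alternatives used DESeq2 1.42.0, limma 3.58.1 (voom, sample quality weights, log2 RPKM with pseudocounts), library size alone, other filters, gene length removed by a loess with span 0.3, the mouse as a block and each muscle library left out. Correlations used log2 CPM with a prior count of 2 and two-sided permutation tests (100000 resamples), and heavy chain shares, as sums over several of these genes, were given without a test. Coding sequences were aligned with MAFFT 7.526. Named genes are the 10 genes, the 10 most like Myh7 and Myh4, and the 4 of each list with the largest fold change, and genes given for single libraries (such as Csrp3, Ankrd2 and Rcan1) were chosen after their values were seen.

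The precision of low genes is limited by their reads: a median of 16 Myh7 reads per WT muscle library, for example, at totals of 21810239 to 33807727 reads. Floors of 3 counts cover counting error only. The mouse pairs tissues by design. Deviations from the group means of the same mouse in liver and muscle correlated at a mean r of 0.10 over 22 mice (-0.03 to 0.26, across 11607 genes), and those of different mice of a genotype at -0.01.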

Additional observations from a re-analysis of the deposited data

How the results depend on the processing

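In muscle, 0 of the 10 genes passed the test of labelled KO against WT under any alternative run, including each library left out in turn (0 to 0). Leaving out WT mouse 531 and DESeq2 each brought Myh7 near 0. Over the 22 fits that each left out 1 library, the log2 fold change ran from -3.90 to -0.30 for Myh7, from -2.47 to -0.016 for Myl2, from -2.20 to -0.27 for Tnnc1, from -2.04 to 0.0017 for Tnni1, from -1.66 to 0.044 for Tnnt1, from -0.92 to -0.12 for Myh2, from -0.50 to -0.049 for Myh1 and from -0.033 to 0.047 for Myh4. DESeq2 gave -0.29 for Myh7 and turned the sign of Tnni1 (0.013) and Tnnt1 (0.043). Myh4 turned sign under library size alone (0.014), on log2 RPKM with either pseudocount and with no filter (0.0087 each), with sample quality weights (0.031) and without the library highest for Myh7 in each group (0.026), always within its standard error of 0.090. The group difference in the share of Myh4 ran from -0.076 to 1.72 percentage points over the libraries left out, and that of Myh1 from -1.40 to 0.14.

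In liver, Myh4 turned sign in DESeq2 (0.032), and Tnnt1 with sample quality weights (-0.017) and without the 4 KO livers whose counts fell with gene length (-0.068). With a minimum of 10 counts in every library, none of the 10 genes could be tested in liver and 4 in muscle. Between tissues, the number of these genes called in WT mice rose from 6 to 10 with no filter, and in KO mice from 4 to 8 with no filter and to 8 in DESeq2, since more of them were tested (10 in each). The main tests called 91.0% of all tested genes in WT mice and 86.7% in KO mice. Shares over all genes under the alternatives are not given here, so these counts between tissues and those below are no finding. With the mouse as a replicate block, 5 of 6 genes passed in WT mice and 4 of 5 in KO mice. Under the block Tnnt1 was at 0.82 (adjusted p = 0.088, edgeR) in WT and turned sign in KO mice (-0.030). In DESeq2, Tnnt1 (0.38, adjusted p = 0.18) and Tnnc1 (0.59, adjusted p = 0.091) lost their calls in WT mice. The block changed no other call. Tnnt1 and Tnnc1 also lost their calls in WT mice without muscle 531 (Tnnt1 0.42, Tnnc1 0.63), where 4 of 6 genes passed. Without WT liver 516, Myh4 differed by -0.0098 between KO and WT liver. These fits were chosen after seeing the data. Labelled KO and WT share no animal number, so no block applies to that comparison.

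Of the correlations with Myh7, judged here by the unadjusted permutation p, that of Myh4 fell under 0.05 by library size alone (-0.44, permutation p = 0.048, against 0.068), that of Myl3 was lost without the 2 libraries farthest from the median of Myh7 (0.21, permutation p = 0.38), and that of Tnni2 then turned sign (0.0065). The causes of these changes were not tested. Of all values recomputed under an alternative, 658 kept their direction and their side of the threshold, 24 turned direction, 4 crossed the threshold or grew by more than 1.5 times, and 6 fell below the threshold. Low read numbers limit all the slow genes in muscle and all but Myh4 and Tnnt1 in liver.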

Other observations

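Muscle libraries other than those described above also differed in single genes. Sln, an inhibitor of the calcium pump, was at 102 RPKM in WT mouse 616 and at 22.7 RPKM in mouse 532, labelled KO, with medians of 3.49 and 1.39 RPKM. Chrng, the embryonic subunit of the acetylcholine receptor, was highest in mouse 616 too, at 3.76 RPKM against a WT median of 0.072, and so was the embryonic heavy chain Myh3 (0.867 RPKM against 0.231). In the labelled KO group both Chrng (0.473 RPKM) and Myh3 (0.763 RPKM) were highest in mouse 611. The adult heavy chain shares of mouse 616 were 93.1% Myh4, 6.36% Myh1 and 0.564% Myh2. These genes were picked after their values were seen, and no test was made of them.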
